A study of Homo sapiens with 18 samples.

Results

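Transcripts of 10 genes of the BCL2 family were followed in MDA-MB-231 cells, which were established from a breast cancer that lacked hormone receptors and HER2 amplification (triple-negative). The members were taken from a fixed list of symbols, 10 of the 62703 genes in the files, and comprised 5 survival genes (BCL2, BCL2L1, MCL1, BCL2A1 and BCL2L2), the effector gene BAK1 and 4 BH3-only genes (BCL2L11, BMF, BID and BIK). Poly(A) RNA was sequenced in 10 distinct libraries, 2 in each of 5 groups. In the knockdown experiment, cells were transduced for 24 h with lentivirus carrying a short hairpin RNA, which was a control (Control shRNA) or targeted EZH2 (shEZH2) or E2F1 (shE2F1), and all 3 groups were then selected for 72 h in puromycin at 2 ug/ml. In the drug experiment, cells were held for 72 h in DMSO or in 1 uM GSK126, which blocks the enzyme activity of EZH2. The labels name no virus or puromycin for these cells. EZH2 places a repressive methyl mark on histone H3 as the enzyme of the Polycomb complex PRC2. E2F1 activates genes of DNA replication and division, and can also activate genes of cell death. The labels do not say whether replicates came from separate cultures, so p-values measure the spread between these libraries, which may be technical. Of the marker genes checked, VIM stood at 1185 to 2860 TPM and KRT8 at 1126 to 1470 TPM over the 10 libraries. ESR1 reached at most 0.17 TPM, and PGR, CD3E and DCN were at 0. ERBB2 (the HER2 gene), EPCAM, GATA3 and PDGFRB were detected in every library, with highest levels of 35.62, 37.69, 13.75 and 5.87 TPM. PTPRC, a marker of blood cells, ran from 0.05 to 0.46 TPM, and the epithelial cadherin CDH1 from 0.26 TPM to 4.5 TPM. Mean levels of some markers differed between the knockdown groups. Mean VIM was 2783 TPM in Control shRNA, 1271 TPM in shEZH2 and 2642 TPM in shE2F1, mean KRT19 was 569, 247 and 499.9 TPM, mean AXL was 675, 214 and 169 TPM, and mean CDH1 was 0.34, 2.07 and 3.38 TPM. Their part in the results was not tested.

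The BCL2 family decides whether the outer membrane of mitochondria stays intact. Effectors such as BAK1 can form pores that release cytochrome c and switch on caspases. Survival proteins hold the effectors in check, and BH3-only proteins, which share only a short helix with the rest of the family, bind the survival proteins or the effectors and so tip cells towards death. Breast cancer cells are known to lean on BCL2L1 and MCL1 in particular. Bulk RNA measures transcripts, not proteins, and in bulk libraries fewer cells with a transcript and less of it per cell cannot be told apart.

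All 10 members are annotated as protein-coding in GENCODE on GRCh38, and they lie on different chromosomes except for 2 pairs. BCL2A1 (chr15:79960892-79971196) and BMF (chr15:40087890-40108892) share chromosome 15, and BID (chr22:17734138-17774770) and BIK (chr22:43110750-43129712) share chromosome 22. BIK has 1 annotated transcript, whereas BCL2L1 has 15 and BCL2L11 has 14. Sequence around annotated start sites, from 250 bases before to 50 bases after, was found in the RefSeq set on GRCh38.p14 for 7 members. It is shown for BCL2L1 and BAK1, which passed the test in both knockdowns, and for BMF, which was called in shEZH2. BID also passed in both knockdowns, but its windows are not printed. Each window is printed 5′ to 3′ on the strand of its gene, and capitals mark CG dinucleotides, the sites of DNA methylation, whose local density is linked to PRC2 binding in mammalian cells.
BCL2L1, upstream start (chr20:31723914-31724213, minus strand): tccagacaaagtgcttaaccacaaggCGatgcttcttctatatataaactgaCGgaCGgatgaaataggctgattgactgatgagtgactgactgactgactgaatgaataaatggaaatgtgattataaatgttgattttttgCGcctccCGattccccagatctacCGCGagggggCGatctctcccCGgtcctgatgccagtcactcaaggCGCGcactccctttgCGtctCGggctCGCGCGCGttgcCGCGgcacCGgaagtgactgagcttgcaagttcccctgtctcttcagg
BCL2L1, downstream start (chr20:31722819-31723118, minus strand): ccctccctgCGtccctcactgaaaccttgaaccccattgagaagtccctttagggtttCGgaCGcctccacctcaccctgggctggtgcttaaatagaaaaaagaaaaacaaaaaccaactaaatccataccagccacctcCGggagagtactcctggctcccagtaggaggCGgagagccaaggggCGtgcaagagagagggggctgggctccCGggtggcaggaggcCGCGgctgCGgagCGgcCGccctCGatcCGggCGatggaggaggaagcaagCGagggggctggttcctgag
BAK1 (chr6:33580227-33580526, minus strand): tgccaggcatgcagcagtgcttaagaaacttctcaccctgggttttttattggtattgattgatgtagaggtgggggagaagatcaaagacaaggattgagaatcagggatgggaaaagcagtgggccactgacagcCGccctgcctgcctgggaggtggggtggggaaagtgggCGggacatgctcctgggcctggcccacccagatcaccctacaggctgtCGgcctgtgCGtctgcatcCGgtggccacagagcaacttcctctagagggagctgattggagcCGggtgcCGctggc
BMF, upstream start (chr15:40108830-40109129, minus strand): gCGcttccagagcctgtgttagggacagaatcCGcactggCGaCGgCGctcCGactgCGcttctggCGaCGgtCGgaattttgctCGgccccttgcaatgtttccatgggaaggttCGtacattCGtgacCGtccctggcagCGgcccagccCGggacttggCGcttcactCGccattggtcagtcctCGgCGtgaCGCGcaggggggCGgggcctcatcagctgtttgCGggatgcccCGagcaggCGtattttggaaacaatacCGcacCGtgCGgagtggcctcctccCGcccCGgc
BMF, downstream start (chr15:40106917-40107216, minus strand): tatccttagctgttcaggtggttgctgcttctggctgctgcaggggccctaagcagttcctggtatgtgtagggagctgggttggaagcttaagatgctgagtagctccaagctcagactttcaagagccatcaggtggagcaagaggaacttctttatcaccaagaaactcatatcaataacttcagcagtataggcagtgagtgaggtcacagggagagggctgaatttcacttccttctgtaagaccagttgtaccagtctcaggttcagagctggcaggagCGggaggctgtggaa

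The windows differ in their CG content. The BCL2L1 windows hold 20 and 16 CG dinucleotides, and the BAK1 window holds 7. The BID windows, which are not printed, hold from 6 to 37. The starts of BMF printed here differ, with 31 at the upstream start and 1 at the downstream start, and the files do not say from which start the transcripts came. Over all 35116 such windows the median was 14. The E2F consensus was searched on both strands as TTTCCCGC, TTTCGCGC, TTTGGCGC and TTTGCCGC. None of the windows of the 7 members holds these letters, against 3.3% of all windows that do, which says only that the letters are not in these stretches.

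Levels are given in TPM (transcripts per 1000000 transcripts), which takes gene length into account so that genes can be compared with each other. In the Control shRNA libraries, the levels of the members spanned from 0 for BCL2A1 to 391 ± 37.4 TPM (SD, n = 2) for BCL2L1. BCL2L1 and MCL1 (146 ± 3.61 TPM) made up most of the survival transcripts, while BCL2, the founding member of the family, stood at 2.57 ± 0.424 TPM. The effector BAK1 stood at 65.6 ± 1.97 TPM. Among the 4 BH3-only members, BID led with 45.9 ± 0.948 TPM, followed by BCL2L11 with 9.08 ± 0.106 TPM, BIK with 2.65 ± 1.11 TPM and BMF with 0.785 ± 0.460 TPM. Outside the members, the BH3-only genes BAD (199 and 161 TPM) and PMAIP1 (74.8 and 72.5 TPM) stood higher than BID in these libraries.

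**Figure D1:**
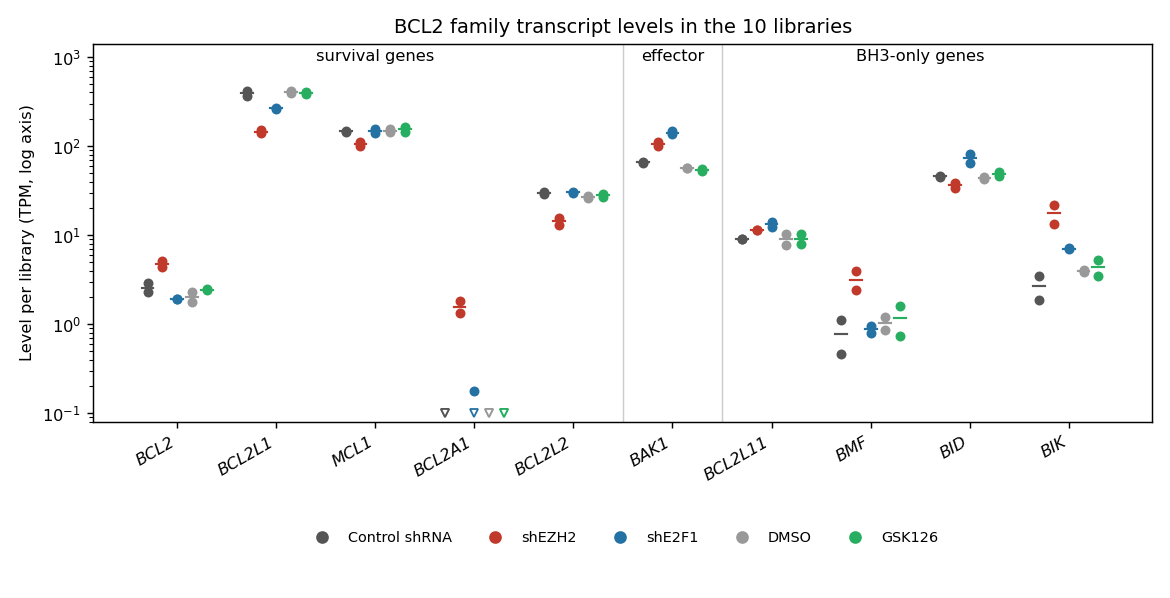
Level of each member in TPM on a log axis, 1 point per library, coloured by group, with a short bar at the mean of the 2 libraries. Open triangles at the bottom are libraries in which BCL2A1 was at 0. The shEZH2 points lie below the Control shRNA points for BCL2L1 and BCL2L2, for example, and above them for BIK and BMF. With 2 libraries per group, such a separation is a description and no test.

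Changes were tested with edgeR on the expected counts, fitted over all genes. A gene is said to have risen or fallen at a Benjamini-Hochberg adjusted p under 0.01, and to have been called when it also changed by more than 2-fold. Values of change are log2 fold changes with their standard error (SE). The hairpins lowered their targets. EZH2 stood at 90.8 and 102 TPM in Control shRNA and at 31.9 and 26.5 TPM in shEZH2, a change of -1.79 ± 0.12 (SE, edgeR adjusted p = 2.4e-06). E2F1 stood at 81.6 and 74.7 TPM in Control shRNA and at 16.1 and 14.6 TPM in shE2F1, a change of -2.54 ± 0.24 (SE, edgeR adjusted p = 1.52e-05). E2F1 also fell in shEZH2, to 40.1 and 20.02 TPM (-1.59 ± 0.23, edgeR adjusted p = 0.000172), so the shEZH2 group carried less of both transcripts.

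The question for the knockdowns was which family transcripts moved when EZH2 or E2F1 was depleted. The study lists a single hairpin sequence per target, so effects of a hairpin on other transcripts cannot be told apart from loss of its target. In shEZH2, 8 of the 9 members tested passed the test, with 4 that rose and 4 that fell, against 41.7% of the 15373 genes tested. Of these, 4 were called, BIK and BMF upward and BCL2L1 and BCL2L2 downward, against 18.2% of all genes. In shE2F1, 3 of 9 passed, with BAK1 and BID higher and BCL2L1 lower, against 30.1% of all genes. None of the 9 was called in shE2F1 by edgeR or by DESeq2, against 11.6% of all genes in edgeR, and 5 had an unadjusted p under 0.05. The median change of the 9 members was -0.17 in shEZH2 and -0.07 in shE2F1, and over all genes tested it was -0.02 and 0. BCL2A1 was the member not tested, because its counts did not pass the filter.

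**Figure D2:**
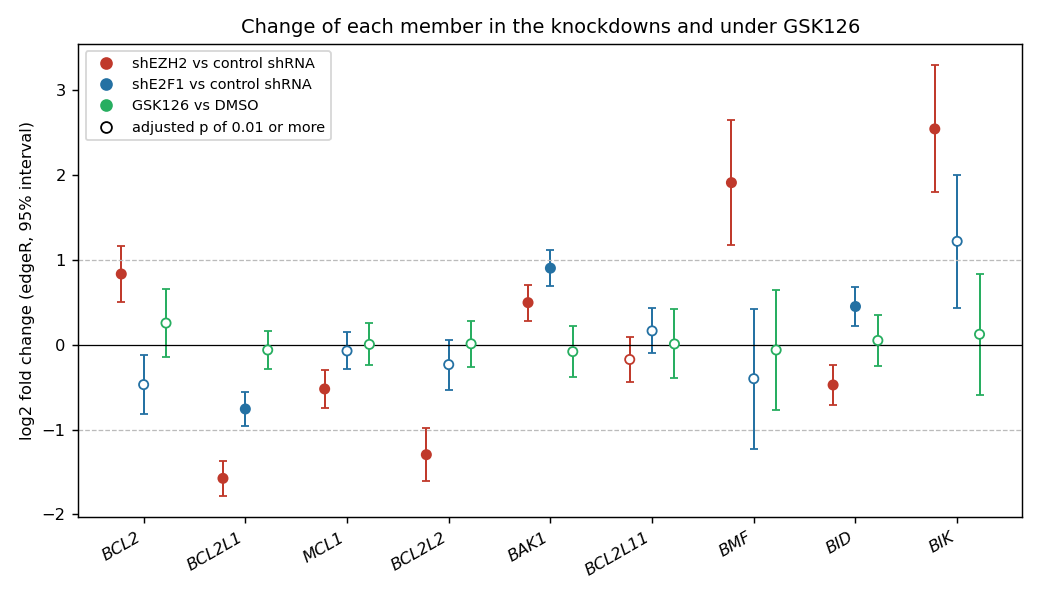
log2 fold change of the 9 members tested in 3 comparisons, with 95% intervals from edgeR. Filled points had an adjusted p under 0.01, open points did not, and dashed lines mark 2-fold. BCL2L1 lies below 0 and BAK1 above 0 in both knockdowns, and every GSK126 interval includes 0.

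BCL2L1 encodes BCL-XL, a survival protein of the mitochondrial membrane, and was the most abundant member in every library. It stood at 418 and 365 TPM in Control shRNA, 153 and 139 TPM in shEZH2, 269 and 263 TPM in shE2F1, 419 and 395 TPM in DMSO, and 405 and 381 TPM in GSK126. The shEZH2 libraries were lowest and the shE2F1 libraries next, with no overlap between the 3 knockdown groups, while Control shRNA, DMSO and GSK126 overlapped. In shEZH2 the gene fell by 1.58 on the log2 scale (SE 0.09, edgeR adjusted p = 1.18e-06), to 0.336 of the control level. Its fall in shE2F1 was smaller, -0.76 ± 0.09 (SE, edgeR adjusted p = 7.71e-05). The direct comparison of shEZH2 with shE2F1 gave -0.82 ± 0.09 (SE, edgeR adjusted p = 2.33e-05). When GC content and gene length were regressed out of each library, the shEZH2 change was -1.21, which was still called.

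MCL1, a survival protein that the cell turns over within a short time and that holds BAK1 in check, was lower in shEZH2. It stood at 149 and 144 TPM in Control shRNA and at 112 and 101 TPM in shEZH2, without overlap. The change was -0.52 ± 0.10 (SE, edgeR adjusted p = 0.00115), and without shEZH2 replicate 2 it was -0.46 with an edgeR adjusted p of 0.0138. In shE2F1 MCL1 stood at 141 and 157 TPM, on both sides of the control libraries, and the change of -0.07 did not pass (95% interval -0.29 to 0.14).

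BCL2L2 encodes BCL-W, a close relative of BCL-XL. Its level was 30.8 and 28.9 TPM in Control shRNA, 15.7 and 12.9 TPM in shEZH2, and 29.8 and 30.5 TPM in shE2F1. Of the knockdown groups, shEZH2 stood apart from Control shRNA and shE2F1 overlapped it. The change in shEZH2 was -1.296 ± 0.141 (SE, edgeR adjusted p = 3.04e-05), and that in shE2F1 was -0.24 and did not pass. BCL2L2 overlaps the readthrough gene BCL2L2-PABPN1 on the same strand, and 15.2% of its 50-base stretches occur there too. RSEM divided such reads with a posterior SD of 6.02 to 9.36 counts per library, which is the uncertainty of its model only. The part of read assignment in the difference was not tested.

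BCL2 itself went the other way in shEZH2. It stood at 2.87 and 2.27 TPM in Control shRNA, 5.16 and 4.44 TPM in shEZH2, and 1.92 and 1.91 TPM in shE2F1. The gene rose in shEZH2 by 0.83 ± 0.15 (SE, edgeR adjusted p = 0.000849), or 1.78-fold. In shE2F1 its change was -0.47 (95% interval -0.82 to -0.12, edgeR adjusted p = 0.0315), which did not pass. shEZH2 exceeded shE2F1 by 1.303 ± 0.154 (SE, edgeR adjusted p = 3.55e-05), a called difference. Even at its highest, BCL2 was a minor survival transcript, at 1.80% of the summed TPM of the 5 survival genes, or 3.76% of their summed CPM.

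BCL2A1 encodes BFL-1, a survival protein best known from blood cells. It had 7 and 12 expected counts in the shEZH2 libraries, 0 and 1 in shE2F1, and 0 in each of the other 6 libraries. Taken over the group, shEZH2 stood at 0.616 CPM (counts per 1000000 counts). This was 7.66 times the limit that 3 counts over both Control shRNA libraries would set. That limit covers counting error in Control shRNA only. Counting error in the 7 and 12 counts of shEZH2 was not included, so the ratio is no lower bound on the change. With so few counts the gene was below the filter. When the filter was dropped, edgeR gave an adjusted p of 0.0008 for shEZH2, 0.62 for shE2F1 and 0.0038 for shEZH2 against shE2F1. The fitted changes, 6.43, 2.21 and 4.22, depend on the prior count of the fit and are no bounds. Of its 50-base stretches, 4.8% also occur in the neighbouring gene ST20.

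BAK1, the pore-forming effector, was higher in both knockdowns. Its level was 67.0 and 64.2 TPM in Control shRNA, 99.6 and 112 TPM in shEZH2, 135 and 146 TPM in shE2F1, 56.7 and 56.0 TPM in DMSO, and 52.1 and 55.7 TPM in GSK126. No 2 neighbouring groups overlapped in this order of levels. BAK1 rose in shE2F1 by 0.90 ± 0.10 (SE, edgeR adjusted p = 3.79e-05), or 1.87-fold, the largest change of any member that passed the test there. The rise in shEZH2 was 0.50 ± 0.10 (SE, edgeR adjusted p = 0.00133), and without shEZH2 replicate 2 it was 0.40 with an edgeR adjusted p of 0.0135. With the GC and length correction it was 0.92 (edgeR adjusted p = 3.39e-05), beside 0.87 in shE2F1. shEZH2 was lower than shE2F1 by -0.41 ± 0.10 (SE, edgeR adjusted p = 0.00365), but this difference turned to 0.05 (edgeR adjusted p = 0.712) once GC content and length were corrected for. A processed copy, BAK1P1, shares 12.5% of the 50-base stretches of BAK1, and the posterior SD of the count was at most 0.48.

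BIK, a BH3-only protein of the endoplasmic reticulum that binds survival proteins, had the largest change of the 9 members tested. It stood at 3.44 and 1.87 TPM in Control shRNA, 13.2 and 21.8 TPM in shEZH2, and 7.19 and 6.93 TPM in shE2F1, and at 3.50 to 5.30 TPM in the drug libraries. Every shEZH2 library lay above every other library, and the shE2F1 libraries came next. BIK rose in shEZH2 by 2.54 ± 0.34 (SE, edgeR adjusted p = 0.000109), or 5.82-fold. The change in shE2F1, 1.22 ± 0.35 (SE, edgeR adjusted p = 0.0166), did not pass. With no filter on low counts it was 1.23 with an edgeR adjusted p of 0.000201 and would have been called. The counts behind these levels were low, from 18 in Control shRNA replicate 2 to 190 in shEZH2 replicate 2.

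BMF is a BH3-only protein that is held at the cytoskeleton until cells are damaged or detached. It stood at 1.11 and 0.460 TPM in Control shRNA, 2.43 and 3.92 TPM in shEZH2, 0.960 and 0.800 TPM in shE2F1, and 0.730 to 1.59 TPM in the drug libraries. The shEZH2 libraries were above all others. BMF rose by 1.91 ± 0.33 (SE, edgeR adjusted p = 0.000672), or 3.75-fold, and the change was 2.57 without Control shRNA replicate 1 and still called. In shE2F1 the value was -0.40 (95% interval -1.23 to 0.42), which did not pass. Between the knockdowns the difference was 2.31 ± 0.34 (SE, edgeR adjusted p = 0.000178).

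BID, which caspase-8 cuts to link death receptors to mitochondria, moved in opposite directions in the knockdowns. Its level was 46.6 and 45.2 TPM in Control shRNA, 38.5 and 34.0 TPM in shEZH2, and 64.6 and 80.5 TPM in shE2F1. The 3 groups did not overlap. BID fell in shEZH2 by 0.48 on the log2 scale (SE 0.11, edgeR adjusted p = 0.00351) and rose in shE2F1 by 0.45 ± 0.10 (SE, edgeR adjusted p = 0.00518), and shEZH2 was lower than shE2F1 by -0.92 ± 0.11 (SE, edgeR adjusted p = 3.05e-05). Neither change reached 2-fold, and both lost the p threshold under some alternatives. The shEZH2 value was -0.38 with an edgeR adjusted p of 0.0116 after the GC and length correction, and it was -0.46, -0.47 and -0.46 with adjusted p of 0.0138, 0.0153 and 0.0217 without Control shRNA replicate 1, shEZH2 replicate 1 and shEZH2 replicate 2. In shE2F1, leaving out any 1 of the 4 libraries gave 0.36 to 0.53 with adjusted p of 0.0147 to 0.0896.

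BCL2L11 encodes BIM, a BH3-only protein that can bind all survival members, and its result depended on the scale. In TPM it stood at 9.15 and 9.0 in Control shRNA, 11.5 and 11.5 in shEZH2, and 12.2 and 14.1 in shE2F1, with no overlap. On the count scale its change was -0.17 ± 0.12 (SE, edgeR adjusted p = 0.246) in shEZH2 and 0.16 ± 0.12 (SE, edgeR adjusted p = 0.295) in shE2F1, and neither passed. The mean transcript length that RSEM assigned to BCL2L11 was 4625 and 4700 bases in Control shRNA, 3578 and 3930 bases in shEZH2, and 4100 and 4200 bases in shE2F1. With the effective gene length as an offset, the change in shEZH2 turned to 0.16 (edgeR adjusted p = 0.339). BCL2L11 lies opposite MIR4435-2HG, a long non-coding RNA with 1832 expected counts on average. Whether the authors counted by strand was not stated. RSEM gave BCL2L11 a posterior SD of 0 counts in every library, which is the uncertainty of its model only.

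**Figure D3:**
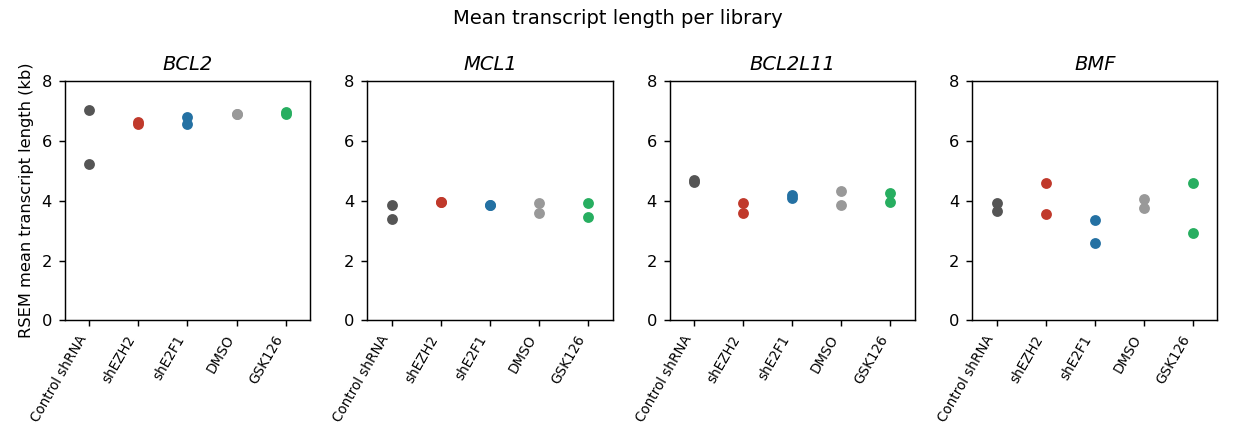
Mean transcript length per library in kb, as RSEM estimated it from the mix of annotated isoforms, for 4 members, with 1 point per library. The BCL2L11 points of both knockdowns lie below those of Control shRNA, but the DMSO points, at 3847 and 4335 bases, do too.

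Length estimates differed between libraries of 1 group for other members as well. For BCL2 they were 5226 and 7036 bases in the 2 Control shRNA libraries and 6626 and 6579 bases in shEZH2. For BMF they were 3652 and 3932 bases in Control shRNA, 4578 and 3567 bases in shEZH2, and 2600 and 3360 bases in shE2F1. BIK, with its single transcript of 951 bases, has the same length in every library. BCL2L1 varied little, from 2545 bases in DMSO replicate 1 to 2661 bases in shEZH2 replicate 1. Which isoforms were used was not analysed here, and the part of these estimates in the TPM differences was not tested.

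GSK126 tests whether blocking the enzyme activity of EZH2 moves the same transcripts as depleting it. By edgeR, 0 of the 9 members tested and 0 of 14632 genes passed, which is 0% both with and without the fold requirement. At an unadjusted p under 0.05 there were 577 genes and no member, and DESeq2 called 10 genes, none of them a member. The changes of the members ran from -0.08 for BAK1 to 0.25 for BCL2. The interval for BCL2L1 was -0.29 to 0.16 around a change of -0.06, and that for MCL1 was -0.24 to 0.25. For the weakly expressed BIK and BMF the intervals were wider, -0.59 to 0.84 and -0.77 to 0.65, so changes within these ranges could not be told from 0 in this fit. These intervals do not show that the transcripts were unaffected. Both the intervals and the edgeR counts above come from a fit without a term for the replicate number. With that term edgeR called 68 genes, none of them a member.

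The shEZH2 and shE2F1 libraries were also set against each other. Here 8 of 9 members passed the test, with 3 higher and 5 lower in shEZH2, against 46.4% of all genes, and 4 were called (BCL2, BMF and BIK higher, BCL2L2 lower) against 23.3%. The difference for BIK, 1.32 ± 0.30 (SE, edgeR adjusted p = 0.00318), did not pass when shEZH2 replicate 2, shE2F1 replicate 1 or shE2F1 replicate 2 was left out, with values of 0.89, 1.38 and 1.27 and edgeR adjusted p of 0.0497, 0.0238 and 0.0293. BCL2L2, at -1.06 ± 0.14 (SE, edgeR adjusted p = 8.16e-05), was under 2-fold without shEZH2 replicate 2, at -0.83, and with the GC and length correction, at -0.95. MCL1 was lower in shEZH2 by -0.45 ± 0.10 (SE, edgeR adjusted p = 0.00262), which did not pass without shEZH2 replicate 2 or either shE2F1 library. BCL2L11 differed by -0.34 with an edgeR adjusted p of 0.0323 and did not pass, but it did with the GC and length correction, at -0.45 (edgeR adjusted p = 0.00667).

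The difference between the shEZH2 effect and the GSK126 effect was tested in a fit of all 10 libraries. It passed and exceeded 2-fold for 4 of 9 members, against 21% of the 15773 genes that passed and 13.8% that were called. These were BCL2L1 (-1.501 ± 0.137, edgeR adjusted p = 2.44e-05), BCL2L2 (-1.29 ± 0.19, edgeR adjusted p = 0.000403), BMF (1.99 ± 0.48, edgeR adjusted p = 0.00667) and BIK (2.43 ± 0.48, edgeR adjusted p = 0.00221). BIK did not pass without Control shRNA replicate 2 or shEZH2 replicate 2, at 2.10 and 1.99. BMF did not pass without Control shRNA replicate 2 (1.55), shEZH2 replicate 2 (1.79), DMSO replicate 2 (1.72) or GSK126 replicate 2 (1.83), and without Control shRNA replicate 1 it was 2.64 and still called. It also did not pass in a fit of only the 8 libraries of the comparison (edgeR adjusted p = 0.0116) or with the length offset (1.78, edgeR adjusted p = 0.0535). The values for MCL1 (-0.51, adjusted p = 0.0206), BID (-0.51, adjusted p = 0.0259), BAK1 (0.59, adjusted p = 0.0139) and BCL2 (0.59, adjusted p = 0.0503) did not pass in edgeR as fitted. Once GC content and length were corrected for, MCL1 (-0.60, edgeR adjusted p = 0.00682) and BAK1 (1.04, edgeR adjusted p = 0.000198) passed, and DESeq2 gave them adjusted p of 0.00886 and 0.00248. The knockdown libraries also had virus and selection, which the labels do not name for the drug libraries. Such a difference cannot be told apart from the agent.

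Summing the 5 survival genes shows how the pool was made up. In TPM the sum was 600 and 540 in Control shRNA, 287 and 259 in shEZH2, 442 and 453 in shE2F1, 591 and 579 in DMSO, and 581 and 574 in GSK126. BCL2L1 held 69.6% and 67.6% of that sum in Control shRNA, 53.2% and 53.7% in shEZH2, and 60.8% and 58.1% in shE2F1. The share of MCL1 moved the other way, from 24.8% and 26.6% in Control shRNA to 39.0% and 38.9% in shEZH2. On the CPM scale, which does not take length into account, BCL2L1 held 43.0% and 43.6% in shEZH2 and was below MCL1 there, at 47.7% and 48.4%. The summed survival TPM was 8.96 and 8.40 times the BAK1 level in Control shRNA, 2.88 and 2.31 times in shEZH2, and 3.27 and 3.10 times in shE2F1. In DMSO and GSK126 it was 10.3 to 11.2 times. These ratios of RNA levels were not tested, and they leave out BAX, an effector that is not among the members. BAX was more abundant than BAK1 and lower in the knockdowns. It stood at 292 and 272 TPM in Control shRNA, 235 and 226 TPM in shEZH2, and 192 and 191 TPM in shE2F1.

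**Figure D4:**
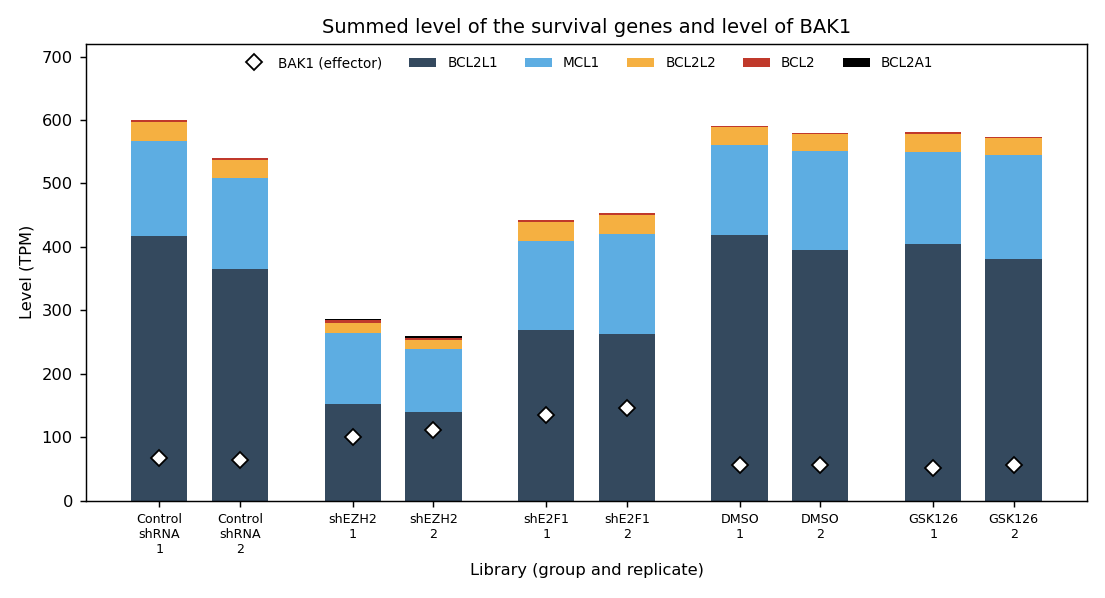
Stacked bars show the TPM of the 5 survival genes in each library, and white diamonds the TPM of the effector BAK1 in the same library. The effector BAX is not drawn. The bars of shEZH2 reach 287 and 259 TPM against 600 and 540 TPM in Control shRNA, and the BAK1 diamonds of both knockdowns stand above the control diamonds.

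The wider death pathway was followed in 7 lists of 74 further genes, of which 67 were tested in the knockdown libraries. In shEZH2, 22 rose, 10 fell and 35 did not pass, and 11 were called, while the median change was 0.18 against -0.02 for all genes tested. In shE2F1, 17 rose, 16 fell and 34 did not pass, and 8 were called, with a median change of 0 in the list and over all genes. Under GSK126, 0 of 66 tested genes passed in edgeR, 0 were called by DESeq2, and 3 had an unadjusted p under 0.05. The shares that rose or fell, 32 of 67 and 33 of 67, are to be read against 41.7% and 30.1% of all genes, and the 11 and 8 called against 18.2% and 11.6%. Between the knockdowns 10 of 67 list genes were called, against 23.3% of all genes, among them USP13 (1.72), APAF1 (1.35), TNFSF10 (1.33), BNIP3L (1.32), MYC (1.16) and DIABLO (1.14) higher and TRADD (-1.92), DDIT3 (-1.65) and TP73 (-1.12) lower in shEZH2 than in shE2F1. The shEZH2 and GSK126 effects differed by a called amount for 6 of 67, against 13.8% of all genes, namely CFLAR (1.58), BBC3 (1.303), BIRC3 (1.26), FADD (-1.02), TNFRSF21 (-1.28) and TP73 (-1.97).

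Among the other BCL2 family genes, 4 of 12 tested rose and 2 fell in shEZH2, and 4 rose and 3 fell in shE2F1. BBC3, the BH3-only protein PUMA, was called in shE2F1 (1.11 ± 0.24, edgeR adjusted p = 0.00394) and reached 0.90 with an edgeR adjusted p of 0.0107 in shEZH2. BCL2L15 was called in both, at 1.78 ± 0.36 and 2.13 ± 0.34 (SE), but its TPM in shEZH2, 3.97 and 1.99, overlapped that in Control shRNA, 3.47 and 1.85. Of genes singled out after their values were seen, BAX, the effector paired with BAK1, fell in both knockdowns, by 0.53 and 0.79 on the log2 scale (edgeR adjusted p = 0.000451 and 4.65e-05). PMAIP1, the BH3-only protein NOXA that binds MCL1, rose in shEZH2 by 0.74 ± 0.09 (SE, edgeR adjusted p = 4.75e-05) and stood at -0.16 in shE2F1, which did not pass.

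The caspase and adaptor list held 3 genes that rose and 2 that fell of 11 in shEZH2, and 4 of each in shE2F1. CFLAR, a decoy that blocks caspase-8, was called in shEZH2 at 1.44 ± 0.10 (SE, edgeR adjusted p = 2.18e-06). FADD, which joins death receptors to caspase-8, was called downward in both knockdowns, at -1.03 ± 0.11 and -1.41 ± 0.11 (SE). TRADD, the adaptor of the TNF receptor, was called in shEZH2 at -1.07 ± 0.22 (SE) and rose in shE2F1 by 0.85 ± 0.19 (SE, edgeR adjusted p = 0.0047).

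Of the 9 apoptosome and mitochondrial factors, 4 rose and 5 did not pass in shEZH2, and 1 rose and 3 fell in shE2F1. DIABLO, which relieves caspases of their inhibitors, was called in shE2F1 at -1.02 ± 0.10 (SE). Among the inhibitors of apoptosis, BIRC3 was called in both knockdowns, at 1.09 ± 0.13 in shEZH2 and 2.07 ± 0.13 in shE2F1 (SE). It stood at 19.2 and 23.7 TPM in Control shRNA, 48.1 and 50.04 TPM in shEZH2, and 101 and 109 TPM in shE2F1. Of 8 death receptors and ligands tested, 2 fell in shEZH2 and 3 in shE2F1, and the others did not pass. TNFRSF1A (-1.23 ± 0.10) and TNFRSF21 (-1.14 ± 0.12) were called downward in shEZH2.

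Genes that control the turnover of family proteins, ubiquitin ligases and deubiquitinases among them, included USP13, called in shEZH2 at 1.04 ± 0.10 (SE) and lower in shE2F1 at -0.68 ± 0.10 (SE, edgeR adjusted p = 0.000418), and RNF144B, called in shE2F1 at 1.496 ± 0.137 (SE). Of 10 tested, 5 rose in shEZH2 and 3 rose and 2 fell in shE2F1. Among 12 transcription factors known to act on family genes, FOXO1, which can drive BCL2L11, was called in both at 1.95 ± 0.25 and 1.86 ± 0.24 (SE) from a low level of 0.45 and 0.58 TPM in Control shRNA. TP73, a relative of p53, was called downward in shEZH2 at -1.84 ± 0.26 (SE), as was DDIT3, a factor of the stress response, at -1.15 ± 0.22 (SE). STAT3, which can drive BCL2L1 and MCL1, was called upward in shE2F1 at 1.07 ± 0.09 (SE). Its level was higher in both knockdowns, at 58.6 and 58.2 TPM in Control shRNA, 115 and 122 TPM in shEZH2, and 147 and 165 TPM in shE2F1.

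**Figure D5:**
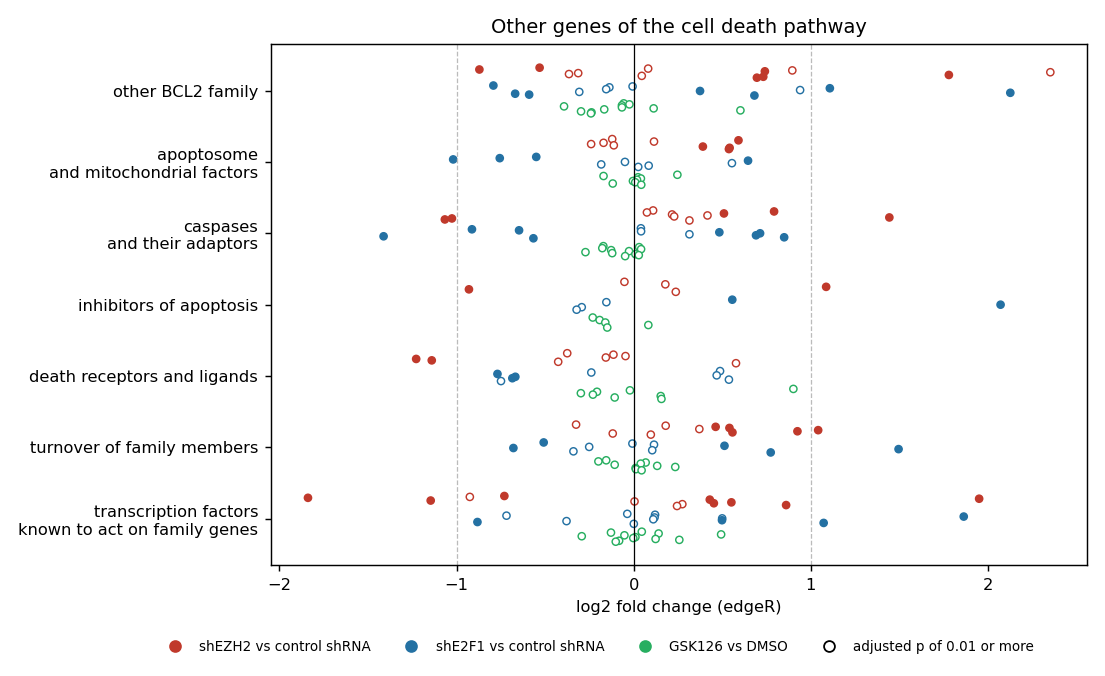
log2 fold change of the other pathway genes that were tested, by list, with 1 point per gene and comparison. Filled points had an edgeR adjusted p under 0.01 and dashed lines mark 2-fold. Filled points lie on both sides of 0 in both knockdowns, and every GSK126 point is open.

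The genes most alike in pattern were found for the member with the largest change that passed in each knockdown. Likeness was Pearson's r of log2 CPM over the 10 libraries, among 11915 genes with a symbol and a mean of at least 50 counts. For BIK these were ATP6V0A1 (r = 0.971), PANX1 (r = 0.970) and AXIN2 (r = 0.969). For BAK1 they were LDB1 (r = 0.988), LHX4 (r = 0.986) and CCND3 (r = 0.985). The 10 libraries fall into 5 groups, so differences between groups enter r, which is a description with no test.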

How the data were processed

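RNA was prepared with a directional poly(A) kit. Per the methods of the study and the submitters' processing notes, reads were aligned to hg38 with STAR and an Ensembl annotation, and abundance was estimated with RSEM (version 1.3.1 in the notes, which give STAR as 2.7.2b where the methods name another version). The authors deposited RSEM expected counts, which split a read that fits several genes among them, and TPM, with transcript lengths and the posterior SD of each count. Whether counting used the strand was not given in the sources used here.

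Of 18 sample records, 8 repeated another value for value, which left 10 libraries in groups taken from the labels. Totals ran from 13198932 to 20055550 counts, so that the limit set by a count of 0 was between 0.150 and 0.227 CPM (3 counts, counting error only). Symbols came from GENCODE release 44 (99.9% of identifiers matched). Expected counts were rounded and tested in R 4.3.3 with edgeR 4.0.16 (filterByExpr, TMM, quasi-likelihood F-test, Benjamini-Hochberg adjustment over the genes tested). One fit held the 6 knockdown libraries, another the 4 drug libraries, and a last fit all 10 for the difference of effects. Thresholds were those of the study, an adjusted p under 0.01 and 2-fold. TPM and RSEM lengths were described without a test. For r, 0.5 was added to CPM before taking log2. A pathway gene covered by the naming rule is not reported here. On simulated counts for shEZH2, 99.5% of 200 changed genes were recovered, with 1 false call over 15373 genes. For GSK126, 99% of 200 were recovered, with 0 false calls over 14632 genes. All planted changes exceeded 2-fold and lay in genes above a set mean CPM, and the simulated replicates shared no deviation. Recovery at the sizes of change and the counts of the members was not tested separately.

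Named were all 10 members, EZH2 and E2F1, the called genes of 7 fixed lists (at most 2 per direction and list) and the 3 genes most like 1 member per knockdown. The members and lists were chosen with earlier results of these data known. Alternatives were DESeq2 1.42.0, its size factors in edgeR, other filters on counts, other sets of libraries in the fit, the replicate number as a block, a correction for GC content and length, an offset from effective length, another threshold, CPM in place of TPM, and leaving out each library. Promoter windows are RefSeq sequence on GRCh38.p14, and shared 50-base stretches were counted over the GENCODE transcripts.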

Additional observations from a re-analysis of the deposited data

Results flagged for a closer look

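The effect of shEZH2 against Control shRNA differed from that of GSK126 against DMSO for 4 members by a test of the difference itself in a fit of all 10 libraries. The differences on the log2 scale were -1.50 for BCL2L1, -1.29 for BCL2L2, 1.99 for BMF and 2.43 for BIK, with edgeR adjusted p of 2.44e-05, 0.000403, 0.00667 and 0.00221. Those for BMF and BIK rested on few counts and were lost without some single libraries, with ranges of 1.55 to 2.64 and 1.99 to 2.88. The groups were too small, at 2 libraries each, for a search for outlying samples.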

How the results depend on the processing

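Of 646 values of change of the members under alternatives, 597 kept their direction and their side of the call (adjusted p and 2-fold together), 31 changed sign, 14 lost the call and 4 gained it. The sign changes lay among values that did not pass the call, 24 of them in GSK126. For the change of BCL2L11 in shEZH2 and in the difference of effects, the effective length offset gave 0.16 and 0.19, and leaving out single libraries gave -0.36 to 0.03 for the latter. For BAK1 between the knockdowns, the GC and length correction gave 0.05, and 0.04 together with the replicate block. In shE2F1, leaving out single libraries gave -0.83 to 0.26 for BMF and -0.19 to 0.05 for MCL1. Under GSK126, leaving out single libraries gave -0.04 to 0.06 for MCL1, -0.20 to 0.20 for BCL2L11, -0.28 to 0.19 for BMF, -0.19 to 0.02 for BAK1, 0 to 0.11 for BID and -0.11 to 0.33 for BIK. There, DESeq2 gave -0.01 for MCL1 and 0 for BCL2L2 and BCL2L11, its size factors in edgeR gave 0 for MCL1, and no filter gave -0.01 for MCL1 and 0 for BCL2L2 and BCL2L11. The GC and length correction, with or without the block, gave -0.02 for MCL1, -0.03 for BCL2L2 and -0.02 for BCL2L11, and the length offset gave -0.01 for BCL2L11 and 0.08 for BMF.

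An adjusted p under 0.05 with no fold requirement selected more, as it asks for less. In the order shEZH2, shE2F1, shEZH2 against shE2F1 and difference of effects, it selected 8, 5, 9 and 7 members, 41, 40, 46 and 28 list genes, and 8550, 6879, 9267 and 5780 of all genes. With no filter, 1 member (BIK) was called in shE2F1, 5 with BCL2A1 among them in shEZH2 and between the knockdowns, and 10 list genes in the difference of effects. With a library left out, list genes called were 5 to 10 in shE2F1 (5 without shE2F1 replicate 1) and 3 to 13 in the difference of effects, where genes called among all were 1305 to 2414 (1305 without shEZH2 replicate 2). Without shEZH2 replicate 2, the changes between the knockdowns were -0.83 for BCL2L2 and 0.89 for BIK. In the difference of effects, BMF and BIK were 1.79 and 1.99 without shEZH2 replicate 2, and 1.55 and 2.1 without Control shRNA replicate 2. Counts of members called, here and with the replicate block below, are to be read against the shares of all genes. In the main fits, 18.2% were called in shEZH2, 11.6% in shE2F1 and 0% under GSK126. Between the knockdowns it was 23.3%, and in the difference of effects 13.8%. For GSK126, genes called were 10 by DESeq2 and 37 to 43 with any 1 library left out, and 0 members were called throughout. The cause was not tested.

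The replicate numbers share only a number in the labels. As a check of pairing, the difference between replicates correlated between DMSO and GSK126 across 11919 genes at r = 0.702, and between the knockdown groups at 0.028 to 0.193. The replicate block raised the genes called under GSK126 from 0 to 68, or 86 with the GC and length correction, and left the members called at 4, 0, 0, 4 and 4 in the 5 comparisons. With the block and the GC and length correction, BCL2L1 under GSK126 stood at -0.09 with an edgeR adjusted p of 0.0093. In the difference of effects the block alone gave MCL1, BAK1 and BID adjusted p of 0.00508, 0.00164 and 0.00783, below the threshold of 0.01. CPM in place of TPM moved 6 of 27 ratios of levels and 20 of 25 shares by more than 1 SD, and turned the direction of 5 ratios against the control, to 0.892 for BCL2L11 in shEZH2, to 0.955, 0.854 and 0.77 for MCL1, BCL2L2 and BMF in shE2F1, and to 0.954 for BMF under GSK126.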

Other observations

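The control groups of the knockdown and drug experiments differed in BBC3, chosen here after its values were seen. It stood at 6.90 and 3.49 TPM in Control shRNA and at 13.7 and 15.0 TPM in DMSO, while the shEZH2 libraries (10.6 and 11.6 TPM) and the shE2F1 libraries (14.3 and 12.2 TPM) lay nearer to DMSO. BCL2L15 went the other way, with 3.47 and 1.85 TPM in Control shRNA and 0.28 and 0.5 TPM in DMSO. No test was made between the control groups.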
